A study of Rattus norvegicus with 48 samples.

Results

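Cytochrome P450 families 1 to 4 hold the heme enzymes with which liver oxidises drugs, toxins, steroids and fatty acids. All genes whose symbol in the array annotation begins with Cyp1, Cyp2, Cyp3 or Cyp4 and a subfamily letter were taken, 48 genes read by 51 probes. For each gene the probe with the highest mean in the table without normalisation was used, and 38 of the 48 genes had a probe above background (detection p under 0.05) on at least 8 arrays. These 38 are described among 11558 features tested in all. The other 10, Cyp2a3, Cyp2b12, Cyp2b21, Cyp2g1, Cyp2j10, Cyp2s1, Cyp4f17, Cyp4f18, Cyp4f37 and Cyp4v3, were above background on 0 to 7 arrays and were not tested. Nearest to the limit were Cyp1b1 on 11 arrays and Cyp2u1 on 12, inside it, and Cyp2j10 on 7 and Cyp4f17 on 5, outside it.

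RNA from liver of male Fischer rats was measured on 48 single-colour bead arrays. The groups were control liver (n = 8), preneoplastic nodules negative for keratin 19 (KRT-19, found in bile ducts and in progenitor-like cells; n = 10), KRT-19-positive nodules (n = 10), and KRT-19-positive nodules treated with triiodothyronine (T3, the active thyroid hormone) for 2 d (n = 10) or 4 d (n = 10). The labels state neither how nodules were induced, nor the dose of T3, nor whether each sample is a separate animal, so the spread behind every p-value is that of these samples and may be technical. Each array detected 8380 to 10695 of 22523 probes. Every level below is a log2 intensity after background correction and quantile normalisation, every difference is on the log2 scale, and a difference was called at an adjusted p under 0.05 in limma fitted to all features. In tissue RNA, fewer cells of a type and less RNA per cell cannot be told apart.

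P450 enzymes sit in the endoplasmic reticulum and draw electrons from the reductase Por. Family 1 is induced through the aryl hydrocarbon receptor, Cyp2b through the constitutive androstane receptor Nr1i3, Cyp3a through the pregnane X receptor Nr1i2 and Cyp4a through the fatty acid receptor Ppara. In rat liver several genes of the Cyp2a, Cyp2c and Cyp3a subfamilies are sex-dependent, set by the pattern of growth hormone release acting through Stat5b. Cyp2c11, Cyp2c13, Cyp2a2, Cyp3a2 and Cyp3a18 are known as predominant in males, and Cyp2c12, Cyp2c7, Cyp2a1 and Cyp3a9 as predominant in females.

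Promoters of 34 of the 38 genes were matched to RefSeq (GRCr8) by gene ID, and Cyp1a1, Cyp2a2, Cyp4a1 and Cyp4f4 were not matched. For 16 of the 34 the start used in that table was the outermost annotated start of the gene, and for 18 it lay inside the annotated gene, by 4911 bases for Cyp2c12, 99 for Cyp2c7, 51 for Cyp2c13, 32 for Cyp4a3 and 29 for Cyp3a2. Up to 120 bases before the start used are shown for 3 Cyp2c genes of the same chromosome that moved in opposite directions. The stretches of Cyp2c13, Cyp3a2 and Cyp4a3 end at the outermost start, and that of Cyp2c12 lies within its annotated gene. Capitals mark TATAAA and the core ATTGAT, bound by the liver factor HNF6 (Onecut1), on either strand.
Cyp2c11, chr1:246175096-246175215, plus strand: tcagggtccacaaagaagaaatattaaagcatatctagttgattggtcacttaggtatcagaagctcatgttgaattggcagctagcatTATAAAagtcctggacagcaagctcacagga
Cyp2c12, chr1:248677035-248677154, minus strand: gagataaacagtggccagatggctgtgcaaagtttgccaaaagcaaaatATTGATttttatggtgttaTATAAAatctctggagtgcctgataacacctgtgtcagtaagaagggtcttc
Cyp2c13, chr1:248787240-248787308, minus strand: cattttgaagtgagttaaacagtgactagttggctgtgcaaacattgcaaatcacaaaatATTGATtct

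In the full 250 bases before the start used, TATAAA was present in 12 of the 34 promoters (35.3%) and in 12.9% of all 33469 rat promoters of that length. ATTGAT was present in 5 (14.7%), against 7.1% of all. The 5 were Cyp1a2, Cyp2c12, Cyp2c13, Cyp2c7 and Cyp4f1. It lay 71 bases before the start used in Cyp2c12 and Cyp2c7 and 60 in Cyp2c13, and TATAAA lay 52, 31 and 41 bases before it in Cyp2c12, Cyp2c7 and Cyp2c13, for Cyp2c13 beyond the stretch shown. Cyp2c12 and Cyp2c13 shared 63.1% of aligned bases over these 250, and Cyp2c11 and Cyp2c12 shared 53.2%.

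Next are 2 pairs of close copies, shown because both members of each pair fell in KRT-19-positive nodules and were higher at 4 d than at 2 d of T3. In them AGGTCA, the hexamer read by nuclear receptors, is in capitals.
Cyp4a2, chr5:134170909-134171028, minus strand: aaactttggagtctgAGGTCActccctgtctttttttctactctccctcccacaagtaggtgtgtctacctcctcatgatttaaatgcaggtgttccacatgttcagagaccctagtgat
Cyp4a3, chr5:134352269-134352356, minus strand: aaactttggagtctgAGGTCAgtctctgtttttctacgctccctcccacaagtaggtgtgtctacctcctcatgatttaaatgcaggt
Cyp3a2, chr12:14343887-14343977, minus strand: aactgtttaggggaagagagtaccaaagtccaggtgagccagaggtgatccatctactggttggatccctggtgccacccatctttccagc
Cyp3a23-3a1, chr12:14398804-14398923, minus strand: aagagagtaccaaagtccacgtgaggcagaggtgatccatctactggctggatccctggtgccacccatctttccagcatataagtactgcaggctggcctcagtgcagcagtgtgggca

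Over 250 bases the Cyp4a2 and Cyp4a3 promoters were identical at 92.5% of aligned positions, and those of Cyp3a2 and Cyp3a23-3a1 at 79.2%. AGGTCA occurred on either strand in 13 of the 34 promoters (38.2%) and in 14.1% of all. For Cyp3a2 and Cyp3a23-3a1 it lay 150 and 164 bases before the start, outside the stretch shown. A direct repeat of AGGTCA with 1 base between was in 0 of 34 and in 0.0508% of all. TTCNNNGAA, the letters of a Stat5 site, was in 3 (8.82%, against 7.67%), namely Cyp2t1, Cyp4a8 and Cyp4f40. GCGTG, the core read by the aryl hydrocarbon receptor, was in 8 (23.5%, against 25.9%). Motifs were sought on both strands. Probe sequences were not used here, so probes for close copies in the Cyp2b, Cyp2c, Cyp2d, Cyp3a and Cyp4a subfamilies may read more than their own gene.

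Some arrays stood apart. Krt19 on KRT-19-negative arrays ran from 6.06 to 10.09, and 6 of the 10 lay above every control array (5.67 to 7.94), with the labels kept as given. KRT-19-negative arrays 2, 4, 5 and 9 were the highest, above every T3 4 d array (at most 8.77). Among nodules after 4 d of T3, arrays 1 and 3 held Cyp2c11 at 5.19 and 4.89, not above background, and Cyp2c12 at 15.03 and 15.13. Arrays 8 and 9 lay between these and the others, with Cyp2c12 at 13.58 and 14.17. On those 4 arrays Krt19 was 8.77, 8.37, 8.57 and 8.21, and on the other 6 it ran from 7.47 to 7.94. Gstp1, a glutathione transferase long used to mark preneoplastic foci in rat liver and chosen after its values were seen, was 14.50, 14.12, 12.95 and 13.20 there and 9.36 to 10.56 on the other 6. Array 1 had the lowest mean correlation with the rest of its group (0.972) and array 3 the third lowest (0.976), the highest being 0.984. Leaving out arrays 1 and 3 together, an alternative chosen after seeing the data, ended 3 calls and added 8 among the P450 genes. Those arrays stood apart in Cyp2c11 and Cyp2c12 themselves, so for both genes the change without them follows in part from the choice. For Cyp2c11, Cyp2c12, Cyp2c13, Cyp3a2, Cyp3a9 and Cyp4b1 the changed calls stand beside the results. The others were Cyp2c22 at 4 d against untreated nodules (0.19 to 0.17, adjusted p = 0.0668 without them), Cyp4f6 and Cyp2u1 at 4 d against control (-0.39 to -0.30, adjusted p = 0.0779, and 0.39 to 0.56, adjusted p = 0.00398), and Cyp2c23 between the kinds of nodule (-0.43, adjusted p = 0.106 with and 0.0387 without).

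KRT-19-positive nodules carried less of most P450 transcripts than control liver. Of the 38 genes, 30 were lower, 2 were higher and 6 did not pass, where 48.7% of all features were called (24.8% higher, 23.9% lower). The 2 higher genes were Cyp2c12 and Cyp4f5. At least 2-fold lower were 18 genes, all members of the Cyp3a, Cyp2d and Cyp4a subfamilies being lower to some extent. The groups did not overlap for 22 of 38 genes (15.9% of all features). The median difference was -0.83, against -0.03 over all features. With median scaling in place of quantile normalisation 27 were called, 5 higher and 22 lower.

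KRT-19-negative nodules differed from control in fewer P450 genes. In them 9 of the 38 (23.7%) were called, 2 higher and 7 lower, a share near the 21.9% of all features called (11.2% higher, 10.7% lower). For 2 genes, Cyp2d4 and Cyp2f4, the groups did not overlap (2.17% of all features). The 2 higher were again Cyp2c12 and Cyp4f5. The 7 lower were Cyp2d4, Cyp2f4, Cyp2u1, Cyp3a9, Cyp4a1, Cyp4a3 and Cyp4a8. The call of Cyp2u1 was lost when any of 7 arrays was left out. With median scaling 6 were called, 2 higher and 4 lower, where 974 of 11558 features were called. Fitted to only the compared groups, 13 were called, 3 higher and 10 lower, where 1686 of 11558 features were called. That fit added Cyp1a1 (0.56), Cyp1a2 (-0.93), Cyp2a2 (-0.31), Cyp2c11 (-1.12), Cyp3a23-3a1 (-0.77) and Cyp4a2 (-0.81). It ended the calls of Cyp2u1 and Cyp4a1. The closeness to the share of all features therefore turned on the setting. Set directly against KRT-19-negative nodules, KRT-19-positive nodules had 27 genes lower and 2 higher (32% of all features called, 17.3% higher and 14.7% lower), and with median scaling 19 lower and 4 higher. The kinds of nodule did not overlap for 8 genes (2.85% of all features).

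After 2 d of T3 the P450 genes moved both ways. Of 38, 7 were higher and 11 lower than in untreated KRT-19-positive nodules (31.3% of all features called, 15.8% higher and 15.5% lower), and 2 did not overlap (4.08%). With median scaling the split was 1 higher and 22 lower, and the called rises of Cyp2c22, Cyp2c24, Cyp2e1 and Cyp4a1 turned to -0.01, -0.19, -0.10 and -0.14. After 4 d, 20 were higher and 8 lower than in untreated nodules (53.7% called, 27.1% higher and 26.6% lower), and with median scaling 11 higher and 10 lower. For 8 genes these groups did not overlap (17.6%). Between 2 d and 4 d, 24 rose and 6 fell (44.4% called, 22.4% higher and 22.1% lower), 4 of them without overlap (9.74%). After 4 d of T3, 21 still differed from control liver, 17 lower and 4 higher (42% called, 20.3% lower and 21.7% higher), and 15 did not overlap with it (11.6%). The 4 were Cyp1a1, Cyp2c12, Cyp2j3 and Cyp2r1.

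The comparisons with untreated KRT-19-positive nodules share those arrays, and the comparisons with control share the control arrays, so their values are set side by side without a count of shared calls. With median scaling the median of all features was 0.31 for KRT-19-positive nodules against control and 0.29 against KRT-19-negative nodules. It was -0.37 after 2 d and -0.24 after 4 d of T3 against untreated nodules. Over all 5 groups a moderated F test called 36 of the 38 genes (75.2% of all features), Cyp1b1 and Cyp4b1 being the exceptions. The highest group mean was that of control liver for 24 genes, and the lowest was that of T3 2 d for 18 and of untreated KRT-19-positive nodules for 11.

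**Figure D1:**
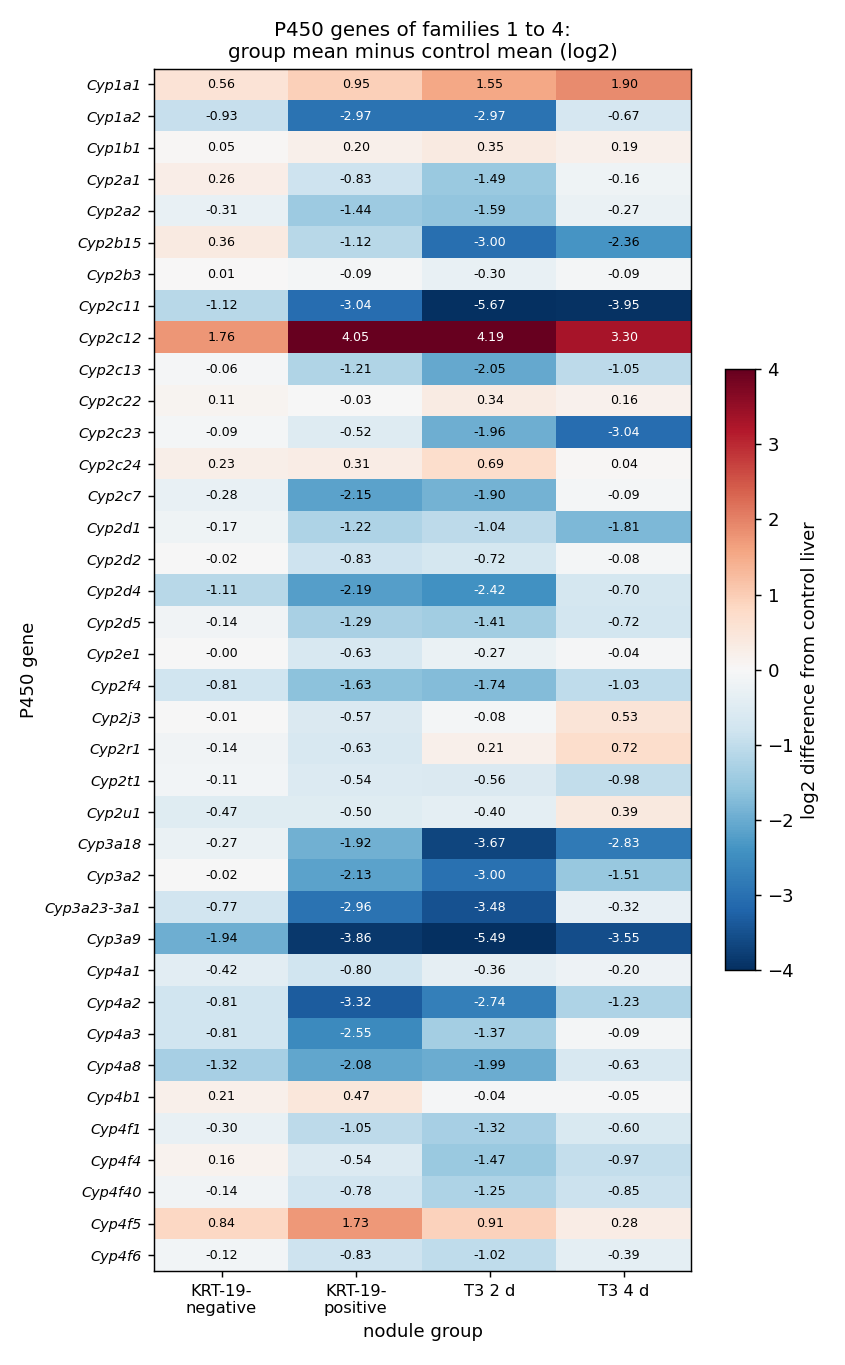
Mean log2 level of each of the 38 P450 genes in the 4 nodule groups minus its mean in control liver (rows, genes; columns, nodule groups; colour ends at 4 in either direction, printed values do not). Most genes were lower in KRT-19-positive nodules, from -3.86 for Cyp3a9, while Cyp2c12 was 4.05 higher, and many rows are paler after 4 d of T3 than after 2 d.

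Family 1 holds the enzymes of aromatic hydrocarbons and amines. Cyp1a2, which also oxidises caffeine, is the constitutive member in liver. Its level ran from 12.03 to 12.75 (median 12.39) in control liver, from 10.88 to 12.75 (11.40) in KRT-19-negative and from 7.93 to 10.85 (9.61) in KRT-19-positive nodules. After T3 it ran from 7.77 to 12.17 (9.14) at 2 d and from 10.28 to 12.30 (12.08) at 4 d. KRT-19-positive nodules lay wholly below both other untreated groups, 7.81-fold below control (-2.97 ± 0.38 SE, adjusted p = 5.11e-09). The 2 d group was spread across more than 4 log2 and its mean did not move (0.00), and at 4 d the level was 4.90-fold above untreated nodules (2.29 ± 0.36, adjusted p = 4.25e-07). The difference of -0.67 from control at 4 d did not pass.

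Cyp1a1, the inducible member, had no control array above background. It was above background on 3 of 10 KRT-19-negative, 8 of 10 KRT-19-positive, 6 of 10 T3 2 d and 7 of 10 T3 4 d arrays. Untreated KRT-19-positive nodules ran from 5.28 to 6.24 and control from 4.58 to 4.84, and the difference of 0.95 did not pass (adjusted p = 0.0934). It passed in limma with median scaling (1.10, adjusted p = 0.0333) and in a fit to only the compared groups (0.95, adjusted p = 4.71e-07). After 4 d its level was at least 2.30-fold that of control (adjusted p = 0.000925). The treated arrays fell apart in level. At 2 d arrays 2 and 5 read 10.62 and 8.49 and the other 8 ran from 4.81 to 6.26, and at 4 d arrays 1, 2, 3, 5, 8 and 9 ran from 7.02 to 8.02 and the other 4 from 4.91 to 5.66. Cyp1b1, an enzyme of estrogens found mainly outside liver, was near background throughout and differed in no comparison. The aryl hydrocarbon receptor Ahr itself did not pass in any comparison, with differences from -0.39 to 0.37.

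The Cyp2c subfamily, enzymes of steroids, arachidonic acid and retinoids, held the largest opposite movements. Cyp2c11, the main steroid hydroxylase of male rat liver, ran from 14.34 to 15.23 (median 14.59) in control, from 11.86 to 14.36 (13.79) in KRT-19-negative and from 9.75 to 13.44 (11.85) in KRT-19-positive nodules. After 2 d of T3 it ran from 5.51 to 11.60 (9.30) and after 4 d from 4.89 to 12.68 (12.52). All KRT-19-positive arrays, treated or not, lay below all control arrays. It was 8.22-fold lower in KRT-19-positive nodules than control liver (-3.04 ± 0.80, adjusted p = 0.00123) and a further 6.18-fold lower after 2 d of T3 (-2.63 ± 0.75, adjusted p = 0.00555). The difference of 1.71 between 4 d and 2 d did not pass (adjusted p = 0.0588). It passed with the authors' table (1.70, adjusted p = 0.0149), median scaling (1.92, 0.0354) and an offset of 50 (1.75, 0.0298). It also passed with the title number as a replicate block (1.71, 0.0469) and array weights (2.55, 0.000894). Without T3 4 d arrays 1 and 3, the lowest of their group in Cyp2c11, it was 3.15, a value that their choice favours. The difference of -1.92 from KRT-19-negative nodules passed at an adjusted p of 0.0433 and was lost when any of 12 arrays was left out.

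Cyp2c12, the steroid sulfate hydroxylase of female rat liver, went the other way. In these male livers it ran from 7.94 to 10.03 (median 9.41) in control, from 9.07 to 13.13 (11.07) in KRT-19-negative and from 12.96 to 13.77 (13.33) in KRT-19-positive nodules. After T3 it ran from 12.43 to 14.28 (13.60) at 2 d and from 10.97 to 15.13 (11.66) at 4 d. KRT-19-positive arrays formed a tight set wholly above control, and KRT-19-negative arrays spanned the distance between. The level was 3.38-fold higher in KRT-19-negative (1.76 ± 0.48, adjusted p = 0.00572) and 16.6-fold higher in KRT-19-positive nodules (4.05 ± 0.48, adjusted p = 6.09e-10) than in control. At 4 d its difference of -0.75 from untreated nodules did not pass (adjusted p = 0.164), but it did with median scaling (-1.09, adjusted p = 0.0382) and with array weights (-0.99, adjusted p = 0.0207). Between 4 d and 2 d it was -0.89 (adjusted p = 0.111), and -1.17 with array weights (adjusted p = 0.0125). Without arrays 1 and 3, the highest of their group in Cyp2c12, these differences were -1.38 and -1.51, values that their choice favours. At 4 d Cyp2c12 was 9.86-fold above control (3.30 ± 0.48, adjusted p = 1.64e-07), or 6.39-fold without arrays 1 and 3.

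Among the 10 KRT-19-negative arrays, Cyp2c12 rose with Krt19. Pearson's r was 0.961 (permutation p = 4e-05) and Spearman's rho 0.939 (permutation p = 0.00012), both two-sided and with 100000 resamples. After adjustment over the 4 groups examined these were 0.00016 and 0.00048, and without the 2 arrays farthest from the median Krt19 level r was 0.944. Of 11557 features, Cyp2c12 had the largest absolute r with Krt19 on these arrays. In a limma fit of every feature on Krt19, 0.182% passed, and Cyp2c12 was the single P450 gene among them (slope 0.93 log2 per log2 of Krt19, adjusted p = 3.38e-05). When arrays with early and late title numbers were fitted as separate blocks the slope was 0.93 (adjusted p = 9.51e-05), and no correlation was taken within either block of 5 arrays. The relation was examined after the levels had been seen. In control liver, untreated KRT-19-positive nodules and T3 2 d nodules r was 0.344 (exact permutation p = 0.35, n = 8), 0.0419 (permutation p = 0.906) and 0.172 (permutation p = 0.644). The T3 4 d arrays fell into separate sets and were left out.

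**Figure D2:**
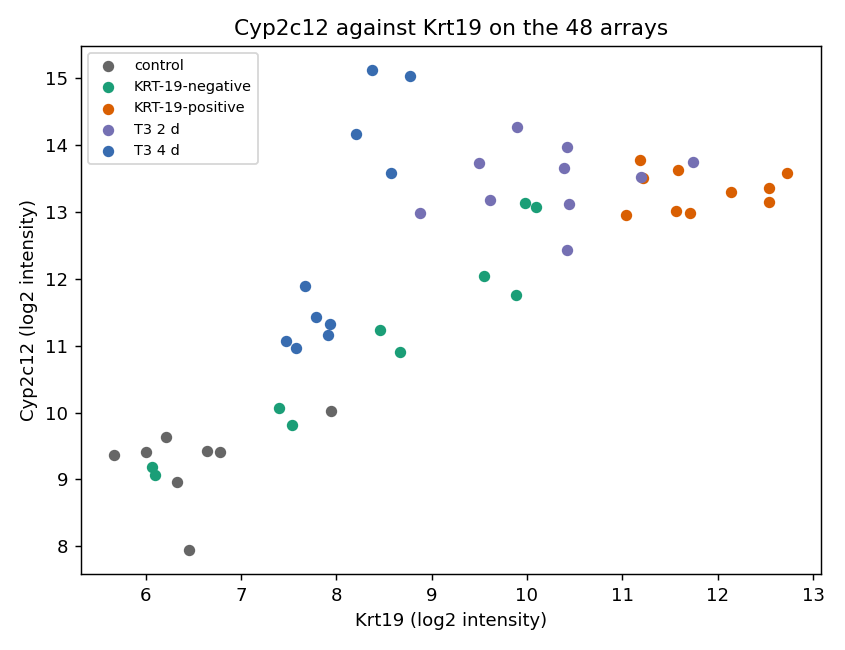
Cyp2c12 against Krt19 on each of the 48 arrays, both in log2 intensity, with a colour for each group. The 10 KRT-19-negative arrays climb from low Krt19 and Cyp2c12 to the upper right (r = 0.961), KRT-19-positive arrays form a cluster between 12.96 and 13.77 of Cyp2c12, and T3 4 d arrays split into low and high Cyp2c12.

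Cyp2c7, a female-predominant gene linked to retinoic acid oxidation, did not follow Cyp2c12. It ran from 14.68 to 15.18 (median 15.01) in control, 13.36 to 15.07 (14.86) in KRT-19-negative and 10.98 to 14.22 (13.26) in KRT-19-positive nodules, then 11.83 to 14.30 (13.04) at 2 d and 14.02 to 15.20 (15.06) at 4 d of T3. It fell 4.43-fold in KRT-19-positive nodules (-2.15 ± 0.33, adjusted p = 2.26e-07), with no overlap, and at 4 d was 4.16-fold above untreated nodules (2.06 ± 0.31, adjusted p = 1.38e-07). Control and T3 4 d arrays came close to 15.27, the top of the normalised scale, where a difference can be cut short. Cyp2c11, Cyp2c23 and Cyp2e1 came as close in control liver. A second Cyp2c7 probe, above background on 14 arrays, fell by 1.16 and rose by 0.68 in these comparisons (adjusted p = 5.28e-05 and 0.00899).

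Cyp2c23, an arachidonic acid epoxygenase, fell with T3. It ran from 14.43 to 15.20 (median 14.65) in control, 14.41 to 14.87 (14.68) in KRT-19-negative, 13.80 to 14.53 (14.22) in KRT-19-positive nodules, 12.24 to 13.49 (12.62) at 2 d and 10.87 to 13.02 (11.12) at 4 d. All treated arrays lay below all untreated ones. The fall from untreated nodules was 2.71-fold at 2 d (-1.44 ± 0.21, adjusted p = 2.87e-07) and 5.73-fold at 4 d (-2.52 ± 0.21, adjusted p = 6.43e-15), and at 4 d arrays 1, 3, 8 and 9 were the 4 highest. Its difference of -0.52 between KRT-19-positive nodules and control (adjusted p = 0.0449) was lost when any of 13 arrays was left out.

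Cyp2c13, a male-predominant steroid hydroxylase, had a mean of 14.28 ± 0.18 (SD, n = 8) in control and 14.22 ± 0.34 (SD, n = 10) in KRT-19-negative nodules. In KRT-19-positive nodules it was 13.07 ± 0.39, with T3 12.23 ± 0.86 at 2 d and 13.23 ± 0.94 at 4 d (SD, n = 10 each). It was lower in KRT-19-positive nodules than control liver (-1.21, adjusted p = 0.000285) and lower again at 2 d (-0.84, adjusted p = 0.0123). At 4 d its 0.16 over untreated nodules did not pass (adjusted p = 0.636), and without arrays 1 and 3 it was 0.58 (adjusted p = 0.0225). Cyp2c22, which oxidises retinoids, and Cyp2c24 kept within 0.37 and 0.69 over the group means. Both were called higher at 2 d than in untreated nodules, by 0.37 and 0.38, and median scaling turned these to -0.01 and -0.19. With median scaling Cyp2c24 was also called above control in KRT-19-positive nodules (0.94, against 0.31 without it), above KRT-19-negative nodules (0.59) and lower at 4 d (-0.78), and with detected probes as a covariate it was 0.70 above control.

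**Figure D3:**
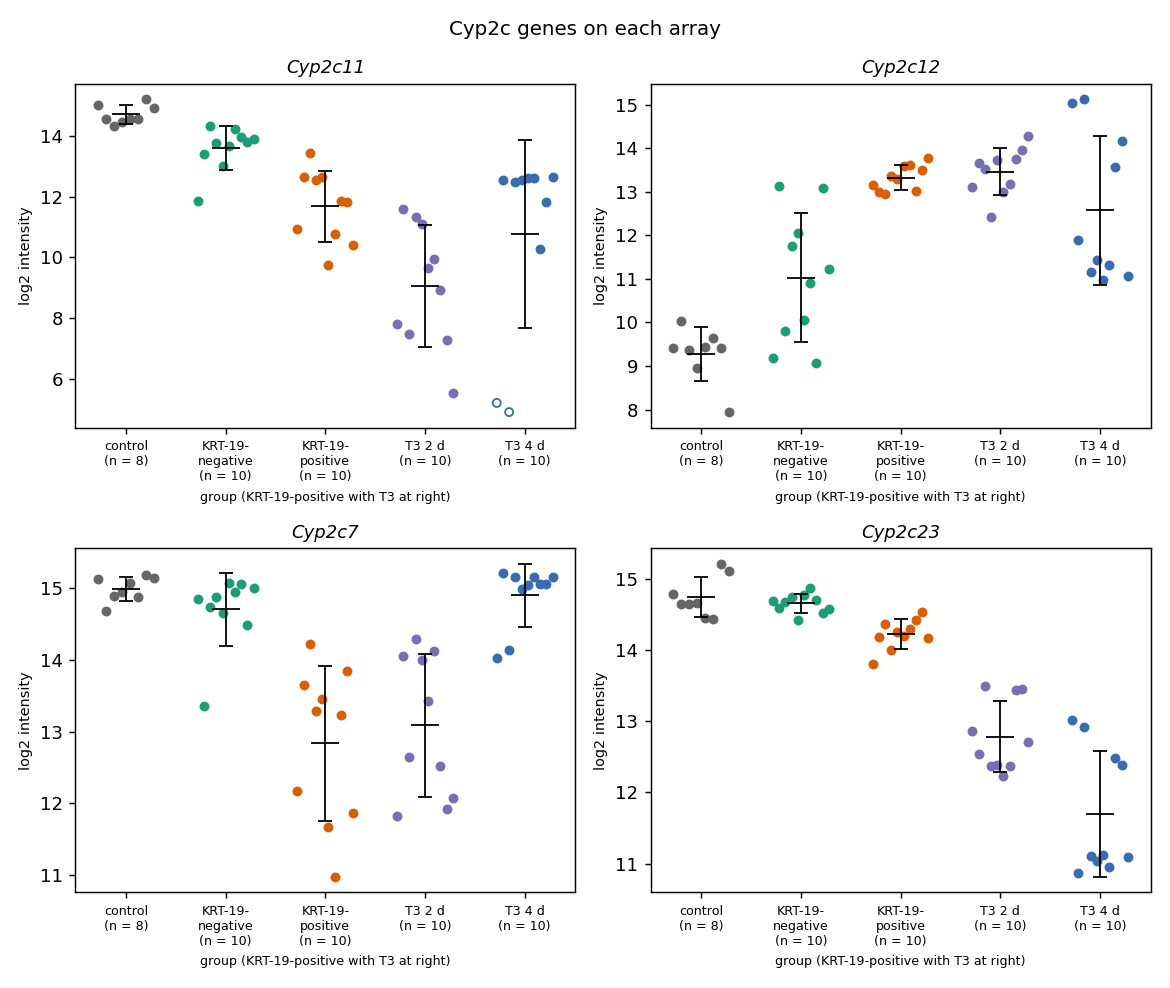
Log2 intensity of Cyp2c11, Cyp2c12, Cyp2c7 and Cyp2c23 on each array (points) with the group mean and SD (bars), in control liver, KRT-19-negative, KRT-19-positive and T3-treated KRT-19-positive nodules; open points were not above background. Cyp2c11 fell and Cyp2c12 rose from control to KRT-19-positive nodules, Cyp2c7 returned to 14.02 or more at 4 d of T3, and Cyp2c23 fell with T3.

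Taken by sex bias, the 5 male-predominant genes were all lower in KRT-19-positive nodules than control liver, with a median difference of -1.92. In that comparison 30 of all 38 P450 genes and 23.9% of all features were lower, so the count does not set the male-predominant genes apart. After 2 d of T3 Cyp2c11, Cyp2c13 and Cyp3a18 fell further, from 2 d to 4 d all but Cyp2c11, whose call turned on the setting, rose, and at 4 d all but Cyp2a2 remained below control. Of the 4 female-predominant genes, Cyp2c12 was higher than control and Cyp2c7, Cyp2a1 and Cyp3a9 were lower. The list therefore did not move as a group.

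The Cyp2a subfamily oxidises testosterone and small aromatic compounds. The female-predominant Cyp2a1 ran from 9.75 to 11.04 (median 10.11) in control, 9.95 to 10.96 (10.54) in KRT-19-negative, 9.10 to 10.08 (9.39) in KRT-19-positive nodules, 7.66 to 9.53 (9.18) at 2 d and 9.71 to 10.60 (10.13) at 4 d. It fell 1.77-fold in KRT-19-positive nodules against control and then moved in opposite directions under T3, with -0.66 ± 0.19 at 2 d (adjusted p = 0.00497) and 0.67 ± 0.19 at 4 d (adjusted p = 0.00223). The 2 d and 4 d arrays did not overlap (1.33 ± 0.19, adjusted p = 5.77e-08). With median scaling the differences from control in KRT-19-positive nodules (-0.35) and at 4 d from untreated nodules (0.30) no longer passed. Cyp2a2, its male-predominant relative, was 2.71-fold lower in KRT-19-positive nodules than control liver (adjusted p = 1.35e-09) and 2.25-fold higher at 4 d than in untreated nodules (adjusted p = 4.19e-08).

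In the Cyp2b subfamily, known for induction by phenobarbital, Cyp2b15 had a mean of 10.88 ± 0.56 (SD, n = 8) in control and 11.23 ± 0.56 in KRT-19-negative nodules. It was 9.76 ± 0.70 in KRT-19-positive nodules and, with T3, 7.87 ± 0.51 at 2 d and 8.51 ± 0.47 at 4 d (SD, n = 10 each). It fell against control in KRT-19-positive nodules (-1.12, adjusted p = 0.000187), fell a further 3.69-fold at 2 d (-1.88, adjusted p = 1.47e-08) and at 4 d was 5.15-fold below control with no overlap. Cyp2b3 was abundant and nearly flat, and its group means spanned 0.30. Of 6 genes listed as responsive to Nr1i3, only Cyp2b15 and Cyp2b3 were measured, and Cyp2b1 and Cyp2b2 were not. The receptor Nr1i3 was 0.91 higher in KRT-19-negative and 0.78 higher in KRT-19-positive nodules than control liver, and at 4 d its difference from untreated nodules was -0.90. All 3 passed.

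All 4 Cyp2d genes, which oxidise many basic drugs, were lower in KRT-19-positive nodules than control liver, and none was called at 2 d of T3, where median scaling gave -0.38 for Cyp2d2 (0.12 without it), -0.55 for Cyp2d4 and -0.60 for Cyp2d5. Cyp2d4 had the widest span, with means of 8.21 ± 0.32 (SD, n = 8) in control, 7.10 ± 0.44 in KRT-19-negative, 6.02 ± 0.34 in KRT-19-positive, 5.79 ± 0.53 at 2 d and 7.51 ± 0.52 at 4 d (SD, n = 10 each). Both kinds of nodule lay wholly below control (-1.11, adjusted p = 4.57e-05, and -2.19, adjusted p = 5.34e-13), and at 4 d it was 2.80-fold above untreated nodules (adjusted p = 4.25e-09). Cyp2d1 did the reverse under T3. Its means were 10.47 ± 0.38 in control, 10.30 ± 0.28, 9.25 ± 0.27, 9.43 ± 0.31 and, at 4 d, 8.66 ± 0.24. It fell by 1.22 in KRT-19-positive nodules against control (adjusted p = 8.04e-11) and at 4 d by a further 0.59 (adjusted p = 0.000101). Cyp2d2 and Cyp2d5 were 0.75 and 0.57 higher at 4 d than in untreated nodules, and both calls were lost with median scaling (0.33 and 0.29).

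The other Cyp2 genes are single members. Cyp2f4, which oxidises naphthalene, had means of 10.32 ± 0.23 in control, 9.51 ± 0.32 in KRT-19-negative, 8.68 ± 0.34 in KRT-19-positive, 8.58 ± 0.25 at 2 d and 9.29 ± 0.27 at 4 d. It lay below control without overlap in both kinds of nodule (-0.81 and -1.63, adjusted p = 6.71e-06 and 8.93e-15) and at 4 d (-1.03, adjusted p = 9.12e-09). Its difference between the kinds of nodule (-0.33) and its rise at 4 d over untreated nodules (0.17) were not called with median scaling. Cyp2e1, the ethanol oxidase, was 1.55-fold lower in KRT-19-positive nodules than control liver and 1.51-fold higher at 4 d than in untreated nodules, the latter not called with median scaling (0.17).

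Cyp2j3, an arachidonic acid epoxygenase, and Cyp2r1, a vitamin D hydroxylase, fell in KRT-19-positive nodules and rose past control with T3. At 4 d Cyp2j3 was 2.14-fold and Cyp2r1 2.54-fold above untreated nodules, without overlap, and 1.44-fold and 1.64-fold above control (adjusted p = 6.73e-05 and 0.000186). Their lower levels in KRT-19-positive nodules than control liver (-0.57 and -0.63) were not called with median scaling. Cyp2u1, a fatty acid hydroxylase, was above background on 3 of 8 control, 0 of 10 KRT-19-negative, 0 of 10 KRT-19-positive, 1 of 10 T3 2 d and 8 of 10 T3 4 d arrays. At 4 d it was at least 1.40-fold above untreated nodules (adjusted p = 3.48e-06). Cyp2t1 was lower at 4 d than in untreated nodules (-0.44, adjusted p = 0.000931).

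Cyp3a enzymes oxidise steroids and many drugs, and all 4 were lower in KRT-19-positive nodules than control liver and than in KRT-19-negative nodules, and all 4 rose from 2 d to 4 d of T3. Cyp3a9, a female-predominant gene, ran from 11.52 to 12.93 (median 12.42) in control, 9.08 to 12.03 (10.48) in KRT-19-negative, 7.19 to 10.10 (8.54) in KRT-19-positive nodules, 5.89 to 8.06 (6.69) at 2 d and 6.81 to 9.60 (9.36) at 4 d. Against control it was 3.84-fold lower in KRT-19-negative (-1.94 ± 0.37, adjusted p = 6.49e-05) and 14.6-fold lower in KRT-19-positive nodules (-3.86 ± 0.37, adjusted p = 7.86e-13), and at 2 d a further 3.08-fold below untreated nodules (-1.62 ± 0.34, adjusted p = 0.000227). At 4 d it was 11.7-fold below control (adjusted p = 1.85e-11), and the groups did not overlap. Its difference of 0.31 from untreated nodules at 4 d did not pass, and without arrays 1 and 3 it was 0.77 (adjusted p = 0.0341).

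Cyp3a23-3a1, the member that steroids and drugs induce through Nr1i2, came back to overlap control after 4 d of T3. It ran from 13.32 to 14.46 (median 14.09) in control, 11.96 to 14.16 (13.19) in KRT-19-negative, 9.26 to 12.25 (10.77) in KRT-19-positive nodules, 9.30 to 12.54 (10.21) at 2 d and 12.91 to 14.01 (13.68) at 4 d. It was 7.77-fold lower in KRT-19-positive nodules than control liver (-2.96 ± 0.34, adjusted p = 2.26e-10), and the 4 d arrays lay wholly above both the untreated (2.64 ± 0.32, adjusted p = 8.62e-10) and the 2 d arrays (3.16 ± 0.32, adjusted p = 1.70e-11). Its second probe gave -3.91 against control and 3.78 at 4 d over untreated nodules, and in KRT-19-negative nodules -1.36 against control (adjusted p = 0.00962), where the first probe did not pass (-0.77). Nr1i2 was lower in KRT-19-positive nodules (-0.50) and higher at 4 d (0.66), and both passed.

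The male-predominant Cyp3a18 and Cyp3a2 stayed low. Cyp3a18 had means of 9.91 ± 0.55 (SD, n = 8) in control, 9.64 ± 0.38 in KRT-19-negative, 7.99 ± 0.49 in KRT-19-positive, 6.23 ± 0.61 at 2 d and 7.08 ± 0.78 at 4 d (SD, n = 10 each). It was 3.79-fold below control in KRT-19-positive nodules and 7.10-fold below at 4 d, with no overlap (adjusted p = 1.33e-08 and 5.06e-13). Cyp3a2 had means of 14.14 ± 0.41, 14.12 ± 0.35, 12.02 ± 1.21, 11.14 ± 1.27 and 12.64 ± 0.55 in the same order. It was 4.36-fold below control in KRT-19-positive nodules and 2.84-fold below at 4 d (adjusted p = 6.53e-06 and 0.00116), and its 0.62 over untreated nodules at 4 d did not pass, becoming 0.86 without arrays 1 and 3 (adjusted p = 0.0488).

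**Figure D4:**
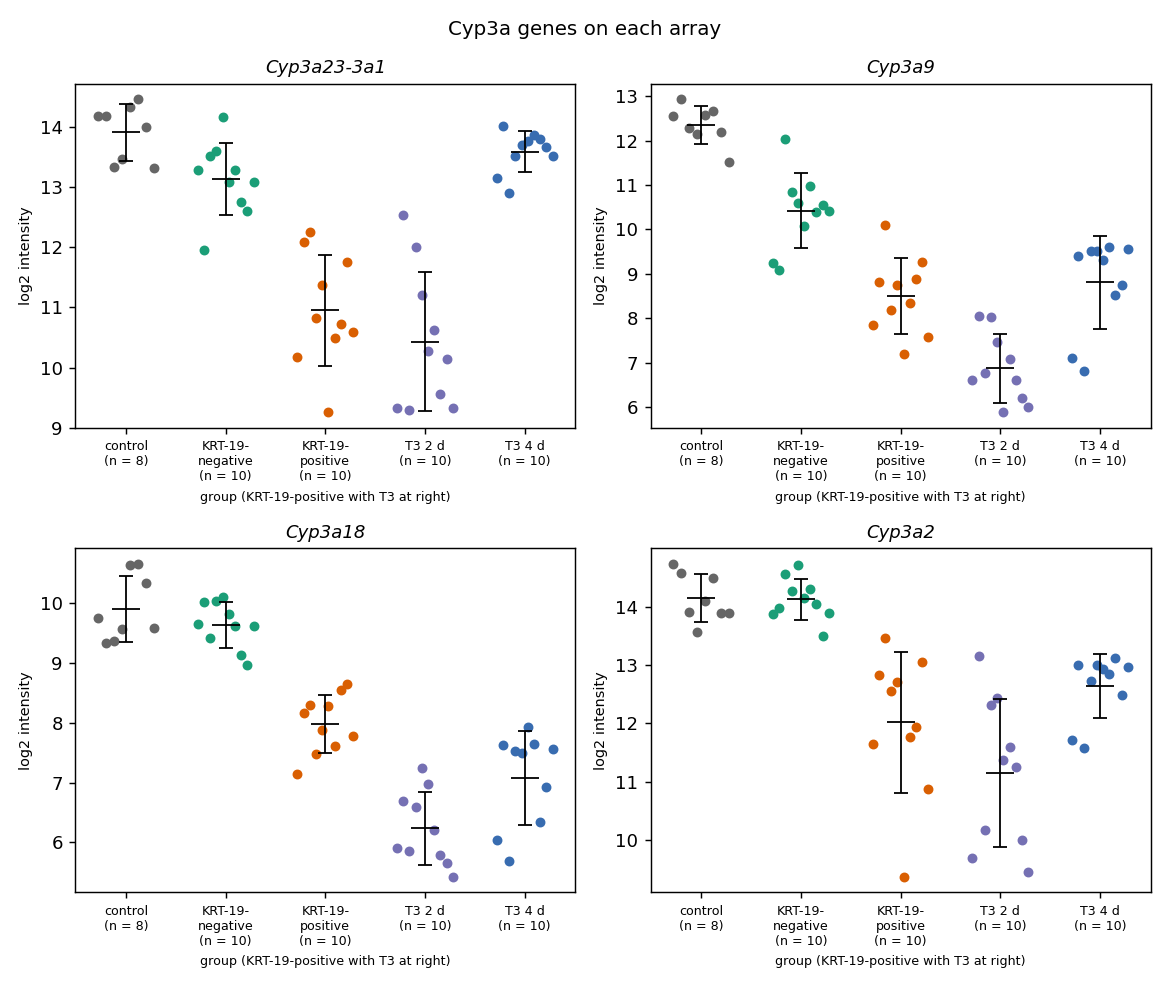
Log2 intensity of Cyp3a23-3a1, Cyp3a9, Cyp3a18 and Cyp3a2 on each array (points) with group mean and SD (bars) in control liver, KRT-19-negative, KRT-19-positive and T3-treated KRT-19-positive nodules. At 4 d of T3 Cyp3a23-3a1 lay between 12.91 and 14.01, beside control, while Cyp3a9, Cyp3a18 and Cyp3a2 lay below every control array.

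Family 4 enzymes hydroxylate the end of fatty acid chains and of eicosanoids. All 4 Cyp4a genes were lower in KRT-19-positive nodules than control liver and higher at 4 d of T3 than in untreated nodules, though for Cyp4a1 neither passed with median scaling. Cyp4a3 ran from 13.08 to 13.66 (median 13.42) in control, 11.80 to 13.27 (12.61) in KRT-19-negative, 9.58 to 11.80 (10.91) in KRT-19-positive nodules, 10.91 to 12.95 (11.90) at 2 d and 12.42 to 13.67 (13.44) at 4 d. It fell 5.85-fold (-2.55 ± 0.25, adjusted p = 1.75e-12), rose 2.26-fold at 2 d (1.18 ± 0.23, adjusted p = 8.59e-05), and at 4 d stood 5.50-fold above untreated nodules (2.46 ± 0.23, adjusted p = 6.57e-13), with -0.09 against control.

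Cyp4a2, whose promoter nearly matches that of Cyp4a3, fell 9.96-fold in KRT-19-positive nodules. It ran from 11.50 to 12.57 (median 12.00) in control, 9.97 to 12.65 (11.15) in KRT-19-negative, 6.79 to 9.95 (8.66) in KRT-19-positive nodules, 7.79 to 10.49 (9.36) at 2 d and 9.56 to 11.59 (11.07) at 4 d. KRT-19-positive arrays lay wholly below control (-3.32 ± 0.36, adjusted p = 4.21e-11). The level rose at 4 d (2.09 ± 0.34, adjusted p = 7.22e-07) and was still below control (-1.23 ± 0.36, adjusted p = 0.00452). Cyp4a8 was near background, above it on 8 of 10 KRT-19-negative, 9 of 10 KRT-19-positive and 6 of 10 T3 2 d arrays, with means of 7.84 ± 0.33, 6.52 ± 1.13, 5.76 ± 0.59, 5.86 ± 0.94 and 7.21 ± 0.88 in the same order. It fell by 2.08 in KRT-19-positive nodules (adjusted p = 5.94e-06) and rose by 1.45 at 4 d (adjusted p = 0.000485), and its call in KRT-19-negative nodules (-1.32) was lost with median scaling (-1.03).

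Cyp4a1, the classical target of peroxisome proliferators, read smaller differences with its brighter probe (-0.80 in KRT-19-positive nodules, 0.60 at 4 d over untreated), which median scaling took to -0.16 and 0.06. A second probe, above background on 31 arrays, gave -1.58 in KRT-19-negative nodules against control, 2.63 at 4 d over untreated nodules and 1.13 over control at 4 d (adjusted p = 7.88e-05), where the brighter probe was at -0.20. Ppara did not pass in any comparison, with 0.17 in KRT-19-positive nodules and 0.11 at 4 d. Its probe was above background on none of the T3 2 d arrays, so a change in it could be missed.

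The Cyp4f genes, which inactivate leukotrienes, split. Cyp4f1, Cyp4f4, Cyp4f40 and Cyp4f6 were lower in KRT-19-positive nodules than control liver, with differences from -1.05 to -0.54, the calls of Cyp4f4 and Cyp4f6 being lost with median scaling (-0.33 and -0.49). Cyp4f5 had no control array above background and was so on 6 of 10 KRT-19-negative, 10 of 10 KRT-19-positive, 10 of 10 T3 2 d and 5 of 10 T3 4 d arrays. It was at least 1.32-fold higher in KRT-19-negative and at least 2.46-fold higher in KRT-19-positive nodules than control liver (adjusted p = 0.00141 and 2.44e-10), and it fell 2.73-fold by 4 d of T3 without overlap (adjusted p = 4.73e-09). Cyp4f4 fell at 2 d without overlap (-0.93, adjusted p = 1.63e-08) and was 1.96-fold below control at 4 d. Cyp4b1 was called lower at 2 d and 4 d (-0.50 and -0.52), but at 4 d its difference was -1.13 among earlier and 0.09 among later title numbers. The 2 d call was lost when any of 10 arrays was left out, and the 4 d call without KRT-19-positive array 4 (-0.38, adjusted p = 0.0709), without T3 4 d arrays 1 and 3 (-0.42, adjusted p = 0.0788) and with detected probes as a covariate (-0.36, adjusted p = 0.118).

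**Figure D5:**
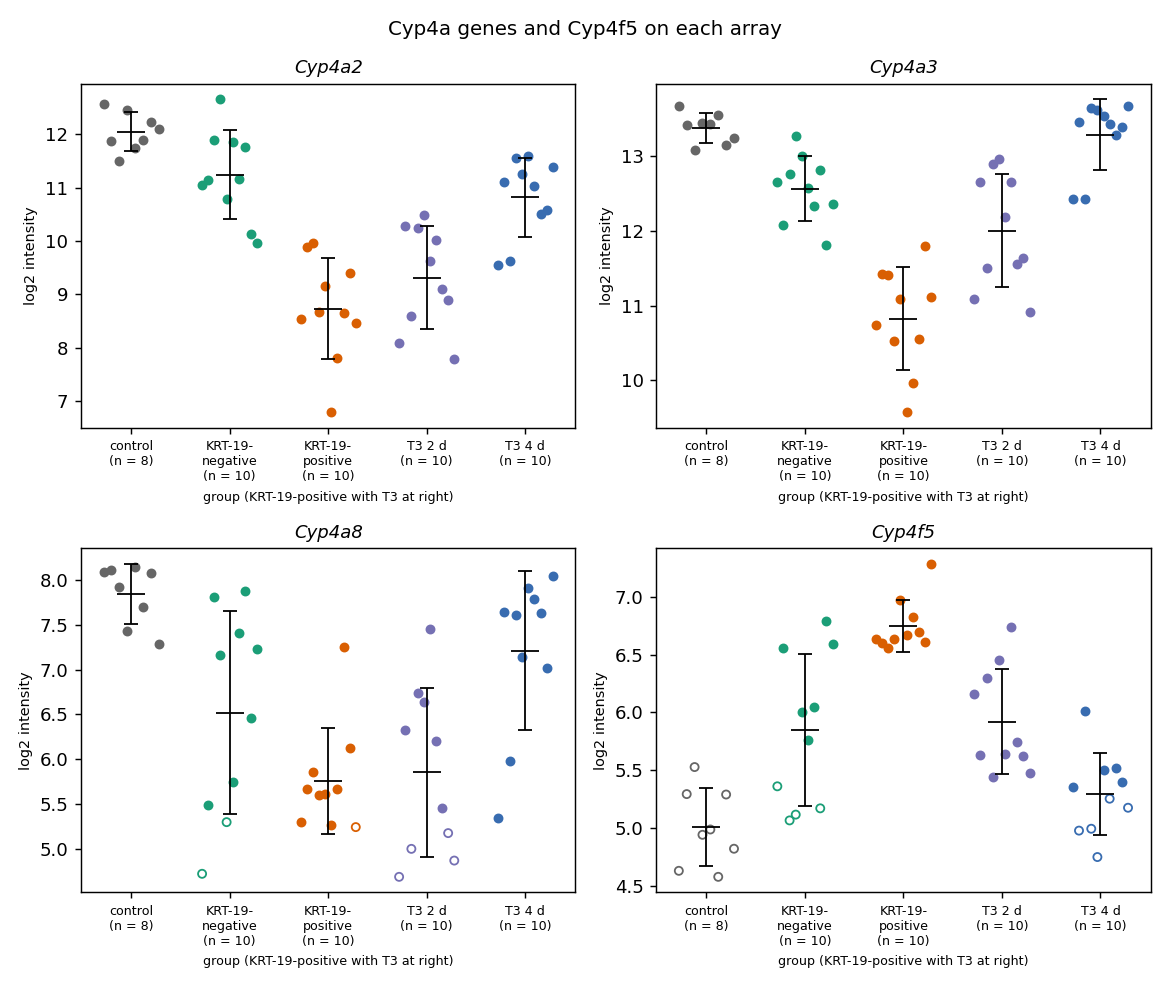
Log2 intensity of Cyp4a2, Cyp4a3, Cyp4a8 and Cyp4f5 on each array (points; open, not above background) with group mean and SD (bars) in control liver, KRT-19-negative, KRT-19-positive and T3-treated KRT-19-positive nodules. The Cyp4a genes fell in KRT-19-positive nodules and were higher at 4 d of T3, and Cyp4f5 took the opposite course.

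Factors that regulate these genes were followed as a list, 25 of 33 measured. In KRT-19-positive nodules 13 were lower than control, 2 were higher and 10 did not pass, with a median of -0.45, where 48.7% of all features were called and 23.9% were lower. Foxa1 (-1.86), Foxa3 (-1.79), Onecut1 (-1.60) and Nr1h4 (-1.57), which act in hepatocyte transcription and bile acid sensing, had the largest differences. After 4 d of T3, 14 were higher than in untreated nodules, 3 lower and 8 not called (53.7% of all features called), with a median of 0.51, led by Onecut1 (2.94), Cebpa (2.17), Foxa3 (2.06) and Foxa1 (1.28). Hnf4a did not pass except at 2 d (-0.83 against untreated nodules) and from 2 d to 4 d (0.97).

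Growth hormone signalling, 11 of 15 genes measured, had 4 lower, 0 higher and 7 not called in KRT-19-positive nodules against control, a smaller share than the 48.7% of all features called. The 4 were the feedback inhibitor Socs2 (-2.05), the IGF carrier subunit Igfals (-1.93), the receptor Ghr (-1.33) and Stat5b (-1.01). At 4 d of T3 against untreated nodules 5 were higher and 1 lower, near the 53.7% of all features called, with the prolactin receptor Prlr at 2.06, Socs2 at 1.44, Stat5b at 1.33 and the corepressor Trim24 at 1.08, and Ghr at 0.23 did not pass. The single gene lower was the kinase Jak2 (-0.31).

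Among 5 measured electron transfer partners, KRT-19-positive nodules had 3 above control and 1 below, where 48.7% of all features were called. Against control, Por was 1.32 higher in KRT-19-negative nodules, 1.76 higher in KRT-19-positive nodules and 1.82 higher at 4 d of T3, all called. At 4 d against untreated nodules 0 of these partners were called higher and 2 lower. The heme-binding partner Pgrmc1 was 1.00 higher in KRT-19-positive nodules and at 4 d was lower than in untreated ones (-1.30), and the cytochrome b reductase Cyb5r3 was lower than control (-0.64). All of these passed. Of 10 measured genes of heme synthesis and breakdown, 3 were higher, 2 lower and 5 not called in KRT-19-positive nodules, a share near the 48.7% of all features called. Alad (-1.10) had the largest difference, and Alas1 was not measured. Outside families 1 to 4, 11 P450 genes were measured, with 4 lower, 1 higher and 6 not called in KRT-19-positive nodules against control, and 4 higher, 2 lower and 5 not called at 4 d against untreated nodules. These shares were near the 48.7% and 53.7% of all features called in the same comparisons. Cyp8b1, which sets the kind of bile acid made, was at -3.06 in KRT-19-positive nodules, and Cyp7a1, the first enzyme of bile acid synthesis, rose by 1.56 at 4 d.

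Markers of liver cell types moved with some of these results. Of all features, 48.7% were called in KRT-19-positive nodules against control (24.8% higher, 23.9% lower) and 32% against KRT-19-negative nodules. The 8 measured hepatocyte markers summed to 17.05 to 17.59 log2 in control and 17.06 to 17.59 in KRT-19-positive nodules, with 3 lower, 1 higher and 4 not called, and 3 lower and 5 not called against KRT-19-negative nodules. Alb did not pass in either comparison (0.07 and -0.12). Cholangiocyte markers, 6 of 11 measured, had 5 higher and 1 not called in KRT-19-positive nodules against control, with a sum of 10.49 to 10.88 in control, 11.15 to 12.27 in KRT-19-negative, 12.65 to 13.68 in KRT-19-positive nodules, 11.75 to 12.94 at 2 d and 10.47 to 11.33 at 4 d. Krt19, whose product names the groups, is in this list, so its difference and its part of the sum are not independent of the grouping. Tff3 had no control array above background. Stellate cell and fibroblast markers, 8 of 13 measured, had 7 higher and 1 lower in that comparison, with sums of 11.27 to 11.83 in control, 11.59 to 12.99, 12.75 to 13.74, 12.77 to 13.44 and 11.83 to 13.15 in the same order. For macrophages, 9 measured, 4 were higher, 3 lower and 2 not called in KRT-19-positive nodules, with sums of 13.16 to 13.97 in control and 13.19 to 14.07 there. Of 4 endothelial markers 0 passed (9.83 to 10.26 and 9.72 to 10.29), and of 8 lymphocyte markers 2 were higher and 1 lower (9.12 to 9.95 and 9.02 to 9.66). The part of these cells in the P450 differences was not tested.

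P450 genes are zoned along the liver lobule. For the counts below, 48.7% of all features were called in KRT-19-positive nodules against control and 53.7% at 4 d of T3 against untreated nodules. Of 12 measured pericentral hepatocyte markers outside the P450 genes, KRT-19-positive nodules had 10 below control and 2 above, with a median of -1.20 and with Avpr1a (-4.10), Aldh1a1 (3.74) and Rhbg (3.01) the farthest from 0, and at 4 d of T3 6 were higher and 3 lower than in untreated nodules. Of 12 periportal markers, 8 were lower and 1 higher in KRT-19-positive nodules, and 6 were higher and 1 lower at 4 d. Glul, the classical pericentral marker, was not measured. The summed level of the pericentral markers, opposite to the count of their calls, ran from 14.36 to 14.80 in control and from 14.81 to 15.19 in KRT-19-positive nodules, and that of the periportal markers from 16.29 to 16.81 and from 15.55 to 16.34.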

How the data were processed

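Bead arrays read 48 samples of rat liver RNA. The deposited table that is not normalised gives, per the file headers, a detection p-value and a linear intensity for each probe on each array, and BeadStudio 3.0.19.0 is named in the submitters' processing notes. A second deposited table of processed intensities, whose sorted values are nearly alike on every array, served as an alternative. Background was corrected with the help of detection p-values, followed by quantile normalisation and log2 with an offset of 16 (neqc of limma 3.58.1, R 4.3.3). Probes detected at p under 0.05 on at least 8 arrays were kept (11723), and the brightest per gene left 11558 features. A linear model over the 5 groups was fitted to all arrays with moderated variances, with Benjamini-Hochberg adjustment across every feature in each comparison. Where a whole group lacked an array above background for a probe, the fold is a lower bound against the lowest detected level. The number of arrays limits the precision.

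Members and lists were chosen with earlier results of these data known. Levels in every group are given for the 20 genes with the widest span of group means among those the F test called, and for others by range and count. From the lists at most the 4 called genes with the largest difference per comparison are named, plus genes that define a list, and marker genes of cell types beyond these are counted. Alternatives were the authors' table, the scaling, the offset, the filters, fits to only the compared groups, title numbers as a block, array weights, detected probes as a covariate and arrays left out. The relation of Cyp2c12 to Krt19 was examined after the levels were seen. The genome build of the probes is not given in the sources used here. Promoters are those of RefSeq, GRCr8, 1 start a gene, which need not be its outermost, and permutation tests used scipy 1.17.1. On simulated data for KRT-19-positive nodules against control (11558 features), 46% of features changed by 0.5 log2, 94% by 1 log2 and 100.0% by 2 and 3 log2 were recovered, with 7 false calls. Only 50 features were changed at each size, a far smaller share than the 48.7% called in the measured data, so these rates need not hold there.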

Additional observations from a re-analysis of the deposited data

Results flagged for a closer look

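In 7 of 190 gene and group combinations (3.68%), 1 array lay far from the others of its group by Dixon's criterion, which chance meets in about 1 in 20 groups. Among KRT-19-negative nodules these were Cyp1a2 on array 3 (highest, 12.75), Cyp2r1 on array 1 (highest, 7.51), Cyp2c7 on array 2 (lowest, 13.36) and Cyp2c24 on array 7 (lowest, 6.40). KRT-19-negative array 3 also had the lowest Gstp1 level of its group, 9.25. In control liver they were Cyp1b1 on array 6 (highest, 5.75) and Cyp2f4 on array 2 (highest, 10.85), and in KRT-19-positive nodules Cyp4a8 on array 8 (highest, 7.25).

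The effect of T3 on Cyp2a1 differed between the 2 times. It was -0.66 at 2 d and 0.67 at 4 d against the same untreated nodules, both called, and the difference of 1.33 between 4 d and 2 d was itself called in limma (adjusted p = 5.77e-08), with no overlap between the groups. With median scaling the rise at 4 d over untreated nodules was 0.30 and did not pass (adjusted p = 0.362).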

How the results depend on the processing

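No alternative moved the total of called P450 genes, both directions together, by more than 1.5 times, while median scaling moved the split (7 higher and 11 lower to 1 and 22 at 2 d, 20 higher to 11 at 4 d, 2 higher to 5 in KRT-19-positive nodules against control), and the F test called 36 genes with median scaling too. Leaving out single arrays gave counts of 8 to 10 for KRT-19-negative and 31 to 33 for KRT-19-positive nodules, each against control, 28 to 30 between them, 15 to 21 at 2 d and 26 to 29 at 4 d of T3 against untreated nodules, 28 to 33 between the times and 20 to 23 at 4 d against control. Of 266 single differences, median scaling ended 38 calls and added 19, among them 8 whose direction reversed: Cyp2c22 at 2 d (-0.0137) and 4 d (-0.24), Cyp2c24 (-0.19), Cyp2d2 (-0.38), Cyp2e1 (-0.10) and Cyp4a1 (-0.14) at 2 d, each against untreated nodules, and Cyp2t1 (0.0049) and Cyp4a1 (0.13) between the kinds of nodule. The cause of these changes was not tested. Relative to the median of all features under that scaling, every difference called with quantile normalisation kept its direction in each comparison. These were 18 of 18 at 2 d and 28 of 28 at 4 d against untreated nodules, and 29 of 29 between the kinds of nodule. Taking that median off puts back the centring that quantile normalisation gives, so this agreement was close to fixed beforehand. The number of detected probes as covariate ended 12 calls and added 7, array weights 2 and 15, and a fit to only the compared groups 4 and 12. Leaving out T3 4 d arrays 1 and 3, chosen after seeing the data, ended 3 and added 8. The title numbers did not pair the samples (median correlation -0.03 over 92 pairs, 19 above 0.1), and the replicate block ended 1 call and added 2, with 9, 32, 29, 18, 28, 30 and 22 genes called in the order above. Earlier against later title numbers as a block changed no call. The slide as a block was not run because the headers give no slide. For genes near background, signal over background limits what could be seen.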
